A study of Homo sapiens with 4 samples.

Results

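The genes described here are 10 members of the Notch pathway, namely the receptors NOTCH1, NOTCH2 and NOTCH3, the ligands JAG1 and DLL1, the receptor-modifying enzyme LFNG, and the target genes HES1, HES4, HES5 and HEY1. They were taken by gene symbol from the platform annotation, which names 15 probes for them, out of 27648 named probes for 18475 genes. Of the 15 probes, 11 were detected on all 4 arrays and 4 on none, and each of the 10 genes had a detected probe. The cells were HEK293, an established human line of embryonic kidney origin, given 100 pmol of siRNA against human CDC73 or of control siRNA. After 24 hours they were moved to a 35 mm dish (confluent) or a 100 mm dish (sparse), and total RNA was taken 24 hours later. The 4 groups were therefore confluent cells with CDC73 siRNA, confluent cells with control siRNA, sparse cells with CDC73 siRNA and sparse cells with control siRNA, each with 1 bead array, so that no difference between 2 groups has a replicate check.

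In Notch signalling a transmembrane ligand of the Delta or Jagged type on one cell binds a Notch receptor on its neighbour. The receptor is then cut by an ADAM protease and by gamma-secretase, and its freed intracellular domain enters the nucleus, joins the DNA-binding protein RBPJ and a Mastermind coactivator, and turns on HES and HEY genes, which code for transcriptional repressors. Because ligand and receptor sit on touching cells, the pathway is one that cell contact can engage. The product of CDC73, parafibromin, belongs to the PAF1 complex that travels with RNA polymerase II, and has been described as a coactivator for Notch as well as for Wnt and Hedgehog signalling. The comparisons set CDC73 siRNA against control siRNA at each density, and confluent against sparse cells with each siRNA.

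Total signal was 22948071 for confluent, CDC73 siRNA-treated cells and 25283814 to 28273404 on the other arrays, so levels below are on a log2 scale after background correction, an added offset of 16 and quantile normalization. The offset makes differences of dim probes smaller than the true ones, and levels of different probes are not compared. A probe counted as detected when fewer than 1% of 450 olfactory receptor probes, used as a negative panel, reached its signal. As a measure of error within an array pair, the 2 brightest probes detected on all 4 arrays were compared for 1879 genes. They disagreed with an SD per probe of 0.327 (siRNA, confluent), 0.252 (siRNA, sparse), 0.324 (density, CDC73 siRNA) and 0.278 (density, control siRNA). Both probes read the same RNA, so this SD holds no variation between dishes, transfections or labellings. A difference beyond it may still be error of that kind. The knockdown could not be checked, since the CDC73 probe was detected on 0 of 4 arrays. Of the HEK293 markers NEFL (signals of 157 to 206) and GATA3 (148 to 227) were detected on all 4 arrays and NEFM and PAX2 on none. The housekeeping genes ACTB and GAPDH were detected on all 4 arrays, and none of 4 haematopoietic markers was detected. Of 5 fibroblast markers COL1A1 and COL3A1 were detected on every array and LUM on 3, and of 4 endothelial markers VWF was detected on 4 arrays and PECAM1 on 3. The summed signal of the fibroblast list was 881 (CDC73 siRNA) and 915 (control siRNA) in confluent cells, against 671 (CDC73 siRNA) and 688 (control siRNA) in sparse cells. COL3A1, a fibrillar collagen gene, was higher in confluent than in sparse cells by 1.25 with CDC73 siRNA and 1.21 with control siRNA on the log2 scale. In the authors' deposited log2 table these COL3A1 differences were 1.01 and 0.67. Its signal in sparse cells with control siRNA, 124.5, was close to the lowest detected signal on that array, 121.3. The part of these markers in the results was not tested.

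Of the receptors, NOTCH3 was higher in confluent cells with either siRNA, NOTCH1 with control siRNA, and NOTCH2 with neither. NOTCH3, a receptor known for its role in vascular smooth muscle, had log2 levels of 9.92 (CDC73 siRNA) and 9.52 (control siRNA) in confluent cells, against 8.34 (CDC73 siRNA) and 8.30 (control siRNA) in sparse cells. Both confluent arrays therefore lay above both sparse arrays. The difference was 1.58 with CDC73 siRNA, which is 3.0-fold, and 1.22 with control siRNA, or 2.33-fold. NOTCH3 was the only one of the 10 genes at least 2-fold different between densities with CDC73 siRNA, where 8.22% of 10509 measured genes passed that limit in either direction, 4.33% as higher and 3.89% as lower.

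NOTCH1, the most widely studied receptor of the family, was high on a single array. Its log2 level was 9.86 (CDC73 siRNA) and 10.77 (control siRNA) in confluent cells, against 9.96 (CDC73 siRNA) and 9.68 (control siRNA) in sparse cells. The deposited signals were 797 (CDC73 siRNA) and 2067 (control siRNA) in confluent cells, and 1090 (CDC73 siRNA) and 879 (control siRNA) in sparse cells. The 3 arrays other than that of confluent cells with control siRNA thus lay within 0.29 of each other on the log2 scale. Between densities NOTCH1 differed by -0.10 with CDC73 siRNA and by 1.09, or 2.13-fold, with control siRNA. Between siRNAs it differed by -0.90 in confluent cells and 0.29 in sparse cells, so that the siRNA difference in confluent minus that in sparse cells was -1.19. Gaps of at least 2-fold between the siRNA differences occurred for 7.59% of 10763 measured genes, 4.65% as lower and 2.95% as higher in confluent cells.

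NOTCH2 had 3 probes, all assigned to the same transcript accession, of which 1 was detected on every array and the others on none. The human genome also holds NOTCH2NL genes, partial copies of NOTCH2, and whether the detected probe separates them could not be read from the files used here. Its log2 level was 6.46 (CDC73 siRNA) and 6.86 (control siRNA) in confluent cells, and 6.74 (CDC73 siRNA) and 7.04 (control siRNA) in sparse cells. With CDC73 siRNA it differed by -0.40 in confluent and -0.31 in sparse cells, each somewhat more than the probe SD. In the authors' deposited log2 table these were -0.25 and -0.17, within it, and without background correction -0.23 and -0.19. The SD was not computed for these versions, in which differences of all genes spread less widely. The density differences of NOTCH2, -0.28 with CDC73 siRNA and -0.18 with control siRNA, were smaller than that SD. The second turned to 0.16 with median scaling of the arrays.

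**Figure D1:**
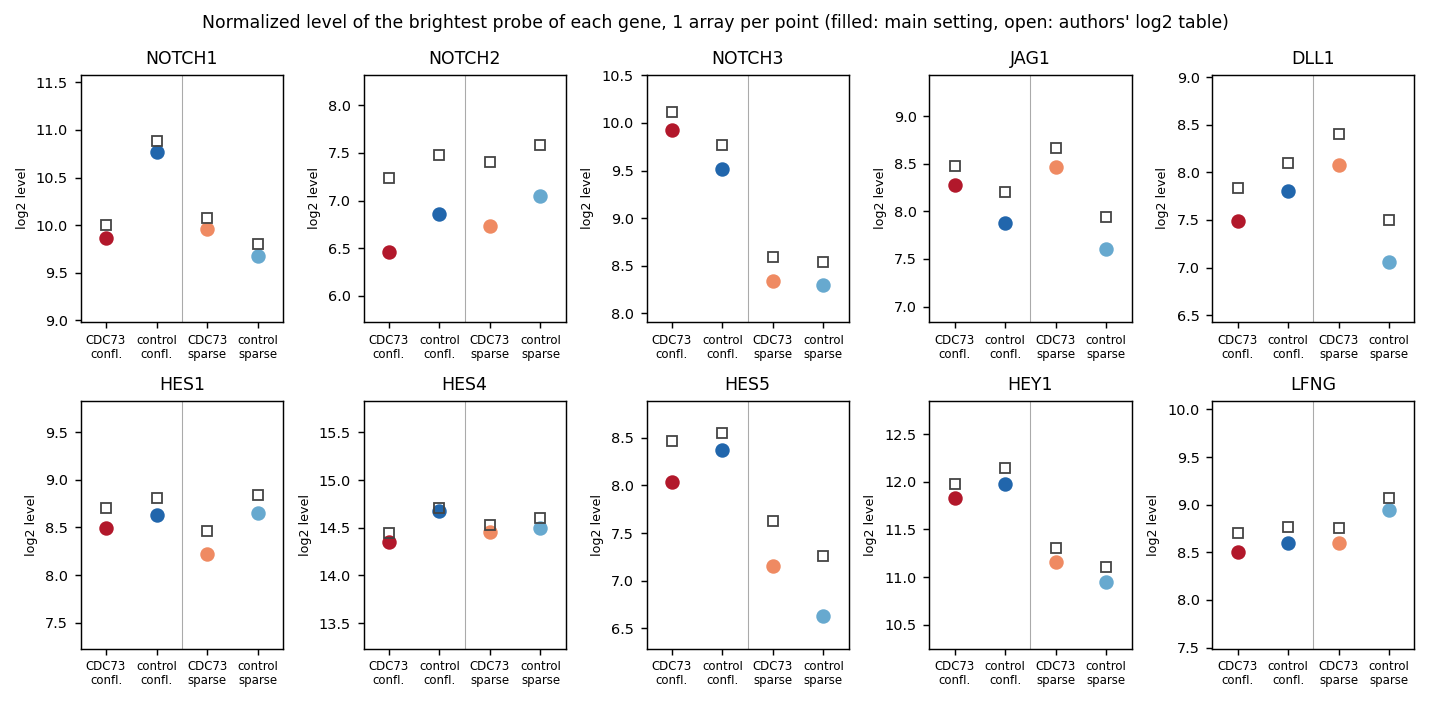
Normalized log2 level (vertical axis, 2.6 log2 units in every panel) of the brightest probe of each gene on the 4 arrays, with CDC73 siRNA left of control siRNA and confluent left of sparse cells. Filled points are the levels described in the text and open squares those of the authors' deposited log2 table. NOTCH3, HES5 and HEY1 lie higher on both confluent arrays than on both sparse arrays, and NOTCH1 lies high only on the array of confluent cells with control siRNA.

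Both ligands had their highest level in sparse cells with CDC73 siRNA. DLL1, a Delta-type ligand, had log2 levels of 7.49 (CDC73 siRNA) and 7.81 (control siRNA) in confluent cells, against 8.08 (CDC73 siRNA) and 7.05 (control siRNA) in sparse cells. It was 2.04-fold higher with CDC73 siRNA in sparse cells and differed by -0.32 in confluent cells. DLL1 was the only one of the 10 genes at least 2-fold different between siRNAs in sparse cells, where 3.95% of 10182 measured genes were, 2.13% higher and 1.82% lower. The log2 difference of 1.03 was close to that limit, and was 0.73 without background correction, 0.89 in the authors' deposited log2 table and 1.13 with median scaling.

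Between densities DLL1 differed by -0.59 with CDC73 siRNA and by 0.75 with control siRNA, a change of sign. Its siRNA difference in confluent minus that in sparse cells was -1.35. DLL1 and NOTCH1 were the 2 of the 10 genes with a gap of at least 2-fold, as had 7.59% of 10763 genes. Without background correction the gap of DLL1 was -0.96 and that of NOTCH1 -1.12, so that 1 gene passed. Of all 10763 genes 115 then passed as lower and 69 as higher. With median scaling 4 of the 10 passed, all as lower, where the median gap of all genes was -0.47. Under that scaling 1865 of the 10763 genes passed as lower and 60 as higher. JAG1, a Jagged-type ligand, had log2 levels of 8.28 (CDC73 siRNA) and 7.88 (control siRNA) in confluent cells, against 8.47 (CDC73 siRNA) and 7.61 (control siRNA) in sparse cells. It was higher with CDC73 siRNA by 0.86 in sparse and 0.40 in confluent cells, and the value in confluent cells turned to -0.07 with median scaling, under which the median of all genes was -0.40. In confluent cells the JAG1 value exceeded the probe SD of 0.327 only slightly, and did not at 0.31 without background correction or 0.26 in the authors' deposited log2 table. That SD was not computed for those versions of the data. The density differences of JAG1, -0.19 with CDC73 siRNA and 0.27 with control siRNA, were within that SD.

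LFNG codes for lunatic fringe, a Golgi glycosyltransferase that adds sugars to Notch receptors and so changes which ligand they answer to. Its 3 probes fall on 2 transcript accessions. The bright one, alone on its accession, was detected on every array, and both probes on the other were detected on none, with signals of 67.3 to 94.9. The bright probe had log2 levels of 8.51 (CDC73 siRNA) and 8.60 (control siRNA) in confluent cells, and 8.60 (CDC73 siRNA) and 8.94 (control siRNA) in sparse cells. It was highest in sparse cells with control siRNA, and the other arrays lay close together. Thus LFNG differed by -0.34 with CDC73 siRNA in sparse cells and by -0.34 with confluence under control siRNA, and by -0.09 in each of the other comparisons.

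Of the 4 target genes HES5 and HEY1 were higher in confluent cells, whereas HES1 and HES4 differed little between densities. All 4 code for repressors with a basic helix-loop-helix domain. Stretches of 3 of their promoters are shown because they share the sequence that RBPJ is known to bind although the genes differed in their response to density. They come from RefSeq (GRCh38.p14), are written in the direction of the gene, and lie wholly upstream of its start, with HES1 at chr3:194136016-194136115 on the plus strand, HES4 at chr1:1000122-1000221 and HES5 at chr1:2530292-2530391, both on the minus strand. Capitals mark GTGGGAA and, where it follows, TTCACAC, which reads GTGTGAA on the other strand.
HES1: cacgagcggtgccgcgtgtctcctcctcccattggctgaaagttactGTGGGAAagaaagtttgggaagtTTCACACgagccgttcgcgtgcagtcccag
HES4: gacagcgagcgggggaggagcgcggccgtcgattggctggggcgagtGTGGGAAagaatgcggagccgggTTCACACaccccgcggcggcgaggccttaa
HES5: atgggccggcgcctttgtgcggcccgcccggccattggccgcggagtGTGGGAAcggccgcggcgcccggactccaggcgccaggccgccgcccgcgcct

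GTGGGAA was searched on both strands of windows from 250 bases before to 50 bases after the start. Windows of HEY1 and DLL1 were not analysed here. The motif occurred in 3 of the 8 members with a window, HES1, HES4 and HES5, and in 6.25% of 35116 windows of all genes. On the gene's strand it began 85 bases before the start in HES1, 77 in HES4 and 81 in HES5, and HES5 held a further match on the other strand. In HES1 and HES4 it was followed after 16 bases by TTCACAC, the opposed pair of RBPJ sites for which the HES1 promoter is known. This exact arrangement, which was chosen after the sequences were seen, occurred in 2 windows in all, those of HES1 and HES4. A match describes letters in the window and does not show that RBPJ was bound.

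HES5, a target prominent in neural progenitors, had log2 levels of 8.04 (CDC73 siRNA) and 8.37 (control siRNA) in confluent cells, against 7.15 (CDC73 siRNA) and 6.63 (control siRNA) in sparse cells. Both confluent arrays lay above both sparse arrays. The density difference was 0.89 with CDC73 siRNA and 1.74, or 3.34-fold, with control siRNA. The value with control siRNA depended on the processing, at 1.28 in the authors' deposited log2 table, 1.22 where background was left uncorrected and 2.06 with median scaling. Between siRNAs HES5 differed by -0.33 in confluent and 0.52 in sparse cells.

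HEY1, a HES-related repressor, was measured by 2 detected probes on 1 transcript accession. The bright probe had log2 levels of 11.83 (CDC73 siRNA) and 11.97 (control siRNA) in confluent cells, against 11.16 (CDC73 siRNA) and 10.95 (control siRNA) in sparse cells. With CDC73 siRNA its density difference was 0.68, and with control siRNA it was 1.02, or 2.03-fold. The dim probe, at levels of 6.23 to 7.08, differed by 0.20 and 0.85 in the same 2 comparisons. Both probes were thus higher in confluent cells with either siRNA, but with CDC73 siRNA the dim one by less than the probe SD. Between siRNAs the bright probe differed by -0.14 in confluent and 0.20 in sparse cells, both within the probe SD.

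HES1, which like HES4 has the paired sites, had log2 levels of 8.50 (CDC73 siRNA) and 8.63 (control siRNA) in confluent cells, and 8.22 (CDC73 siRNA) and 8.65 (control siRNA) in sparse cells. It was lowest in sparse cells with CDC73 siRNA, at -0.43 from control siRNA, and its other differences lay between -0.13 and 0.28, within the probe SD. HES4, a close relative of HES1, had a strong signal of 19816 (CDC73 siRNA) and 28757 (control siRNA) in confluent cells, and of 20826 (CDC73 siRNA) and 23269 (control siRNA) in sparse cells. After normalization its differences lay between -0.33 and 0.18. Whether so bright a probe can show the full size of a change was not tested.

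**Figure D2:**
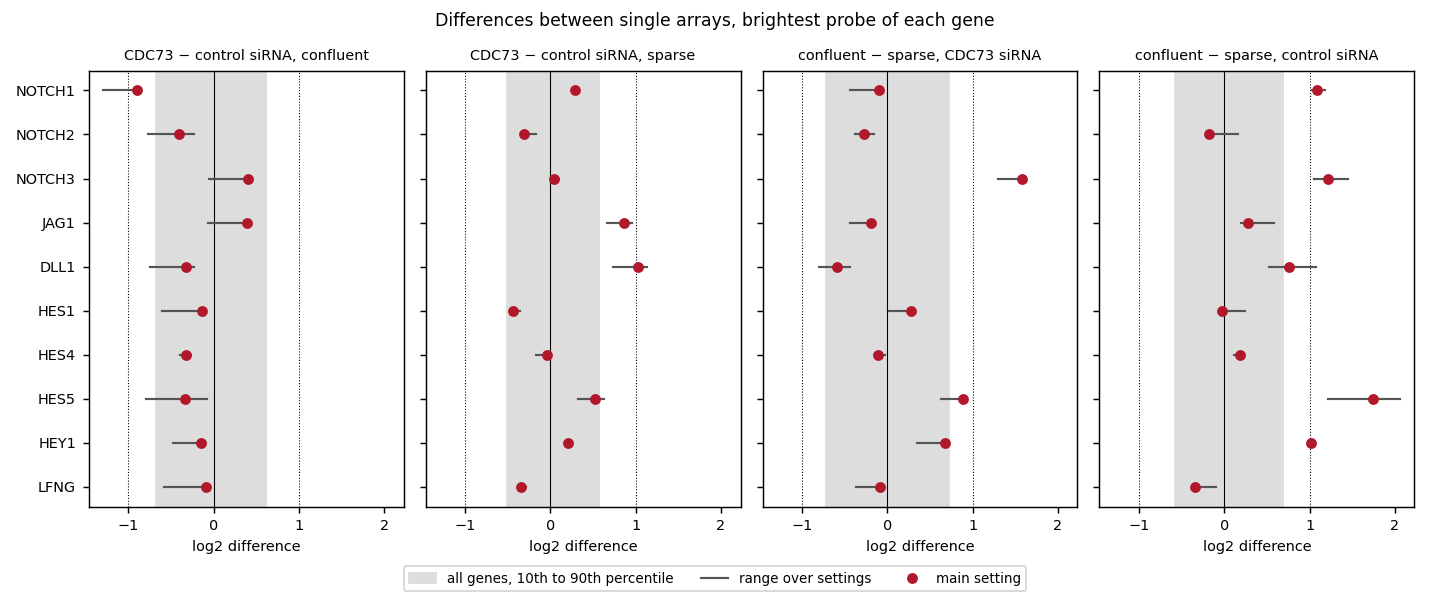
Log2 difference between 2 single arrays (horizontal axis) for the brightest probe of each gene, in the 4 comparisons. Points are the values described in the text, bars span these and 4 other ways of processing, grey bands hold the 10th to 90th percentile of all measured genes, and dotted lines mark 2-fold. With control siRNA HES5, NOTCH3, NOTCH1 and HEY1 lie past 2-fold between densities, and with CDC73 siRNA NOTCH3 does.

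Set side by side, the 10 genes differed most in the density comparison with control siRNA. There 4 of 10, HES5, NOTCH3, NOTCH1 and HEY1, passed 2-fold upward and 0 passed it downward. Of 10244 measured genes 5.54% passed in either direction, 3.9% upward and 1.64% downward. The count was 3 without background correction, where HEY1 was at 0.99, 3 with the probes of a gene averaged, and 5 with median scaling. The number of all genes past 2-fold upward moved as well, from 400 of 10244. It was 107 of 10244 without background correction, 288 of 10254 with probes averaged and 813 of 10244 with median scaling. The median of the 10 was 0.51 and that of all measured genes 0.02. With CDC73 siRNA the median density difference was -0.10 for the 10 genes and -0.02 for all, with 1 gene past 2-fold. Both comparisons were made on separate arrays, and the genes were chosen with the first result known, so the counts are a description.

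With CDC73 siRNA in confluent cells 8 of the 10 genes were lower, NOTCH3 and JAG1 being the exceptions, against 50.2% of all genes. With median scaling all 10 were below 0, as were 79.2% of all genes. Relative to the median of all genes NOTCH3 (0.35) and JAG1 (0.33) were still above, and HES4 (0.004) lay almost at it. With quantile normalization none passed 2-fold, while 5.79% of 10497 measured genes did (2.29% higher, 3.51% lower), and the median was -0.23 against -0.002 for all genes. That siRNA comparison and the density comparison with control siRNA share the array of confluent cells with control siRNA. A high or low reading on this array alone would move both results. In sparse cells 6 of 10 were higher with CDC73 siRNA, close to the 53.9% of all genes. The median of the 10 was 0.12, against 0.04 for all genes. The siRNA differences at the 2 densities, which share no array, had opposite signs for NOTCH1, DLL1, HES5 and HEY1. Each was higher with CDC73 siRNA in sparse and lower in confluent cells. Both values of HEY1 (-0.14 in confluent, 0.20 in sparse cells) and that of DLL1 in confluent cells (-0.32) lay within the probe SD. HES5 in confluent cells was at -0.08 in the authors' deposited log2 table. The share of all genes with opposite signs was not counted, so these signs are a description. NOTCH2, HES1, HES4 and LFNG were lower and JAG1 and NOTCH3 higher at both densities, though NOTCH3 by 0.04 and HES4 by -0.04 in sparse cells.

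**Figure D3:**
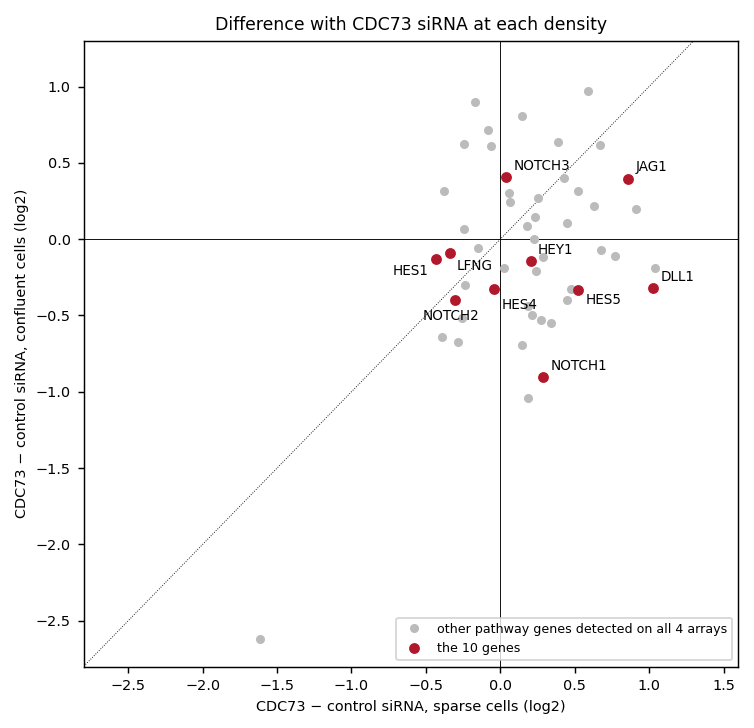
Log2 difference between CDC73 and control siRNA in confluent cells (vertical axis) against that in sparse cells (horizontal axis), with 1 array on each side of every difference. Red points are the 10 genes, grey points other pathway genes detected on all 4 arrays, and the dotted line marks equal differences. DLL1, HES5, HEY1 and NOTCH1 lie right of and below 0, and CCND1 lies far below 0 on both axes.

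A limma fit with one term for density and one for siRNA, over the 4 arrays, was the test used. It has 1 residual degree of freedom and counts any difference between the siRNA effects as error. It also gave every gene the same spread, an SE of 0.28, so its p-values say little about the error of a single gene. In this fit NOTCH3 rose with confluence by 1.40 (limma, Benjamini-Hochberg adjusted p = 7.13e-05), HES5 by 1.31 (adjusted p = 0.000236) and HEY1 by 0.85 (adjusted p = 0.037). These 3 of 10 genes compare with 8.09% of 10763 genes that passed an adjusted p of 0.05 in either direction, and 4.99% that passed it upward. NOTCH1 did not pass, at 0.49 with an adjusted p of 0.31 in the limma fit.

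Without a detection filter the limma fit passed no gene at all, with adjusted p of 0.0976 for NOTCH3, 0.128 for HES5 and 0.145 for HEY1, although 2772 genes then had an unadjusted p under 0.05. The fit then no longer gave every gene the same spread. HEY1 was also not past the threshold with median scaling (adjusted p = 0.436) or with its probes averaged (adjusted p = 0.0734, limma). For the siRNA effect 0 of 10 genes passed, against 4.13% of all genes in either direction and 1.75% upward, and JAG1 had the smallest adjusted p, 0.247, with an effect of 0.63. Its unadjusted p in that limma fit was 0.0256, the only one of the 10 under 0.05, and no alternative of this fit called any of the 10.

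Of 64 other genes of the pathway, 61 had a named probe and 44 to 47 were measured in a comparison. Between siRNAs 0 of 46 passed 2-fold upward and 3 downward in confluent cells, against 2.29% and 3.51% of all genes. In sparse cells 3 of 46 passed upward and 2 downward, against 2.13% and 1.82% of all genes. Of the 3 upward in sparse cells, CDKN1A alone was detected with both siRNAs, and the size for DLK2 and HES2, undetected with control siRNA, was not shown to reach 2-fold. Between densities 1 of 47 passed upward and 2 downward with CDC73 siRNA, against 4.33% and 3.89% of all genes. With control siRNA 2 of 44 passed upward and 0 downward, against 3.9% and 1.64% of all genes. The medians of these pathway genes were 0.03, 0.23, -0.04 and 0.12 in the same order. In the additive fit, 3 passed upward and 1 downward with density, and 1 upward and 2 downward with siRNA (limma, adjusted p under 0.05, of 47 tested). Of all genes 8.09% passed that fit with density, 4.99% upward, and 4.13% with siRNA, 1.75% upward.

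Among further receptors and ligands, JAG2, a Jagged-type ligand, resembled NOTCH1. Its log2 level was 8.32 (CDC73 siRNA) and 8.85 (control siRNA) in confluent cells, against 8.31 (CDC73 siRNA) and 8.03 (control siRNA) in sparse cells. DLL3, a ligand that inhibits Notch within its own cell, ran otherwise, differing by 0.31 with CDC73 siRNA in confluent and -0.38 in sparse cells. DLK2, a noncanonical ligand, was detected with CDC73 siRNA only, at least 1.68-fold higher in confluent and at least 1.41-fold higher in sparse cells on the scale used here. Its log2 difference in the authors' deposited log2 table was smaller, 0.39 in confluent and 0.57 in sparse cells. Its siRNA effect passed the additive fit (1.05, limma adjusted p = 0.00937). NOTCH4, DLL4, DLK1 and DNER were not detected on any array.

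Of the enzymes that mature or cut the receptor, none passed 2-fold, but some lay outside the range that holds the 10th to 90th percentile of all genes. POFUT1, which adds O-fucose to Notch, and NCSTN, the nicastrin subunit of gamma-secretase, were higher in confluent than in sparse cells with control siRNA by 0.76 and 0.73, and by 0.01 and -0.11 with CDC73 siRNA. The 90th percentile of all genes was 0.69 with control siRNA and 0.72 with CDC73 siRNA. With median scaling POFUT1 (0.70) and NCSTN (0.72) lay within the range for control siRNA, whose 90th percentile was then 0.92. PSEN2, a catalytic subunit of gamma-secretase, differed by -0.676 with CDC73 siRNA in confluent and by -0.28 in sparse cells. The value in confluent cells lay just inside the 10th percentile of all genes, -0.677. APH1B, another subunit, was higher in confluent cells by 0.85 with CDC73 siRNA and 0.59 with control siRNA. None of the 4 measured glycosylation and maturation genes or 7 measured proteases passed the additive fit.

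In the nucleus, RBPJ had log2 levels of 8.72 (CDC73 siRNA) and 8.01 (control siRNA) in confluent cells, against 7.88 (CDC73 siRNA) and 7.96 (control siRNA) in sparse cells, and was highest in confluent cells with CDC73 siRNA. The acetyltransferase gene CREBBP, a coactivator, had the same shape, with a difference of 0.61 between siRNAs in confluent and -0.06 in sparse cells. TLE2, a corepressor that HES proteins recruit, was the 1 of 12 measured nuclear genes past the additive fit for density (0.97, limma adjusted p = 0.0135). Of the 12, 6 had a density effect above 0 and 6 below. TLE2 was undetected in sparse cells with control siRNA, so its difference there was at least 1.69-fold on the scale used here. In the authors' deposited log2 table its density differences were 0.66 with CDC73 siRNA and 0.53 with control siRNA.

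Of the ubiquitin ligases, MIB1 was lower with CDC73 siRNA at both densities. MIB1, which drives the endocytosis of ligands in the sending cell, differed by -1.15 in confluent cells. Its signal there with CDC73 siRNA, 103.4, was close to the lowest detected signal on that array, 102.8. In sparse cells MIB1 was undetected with CDC73 siRNA and lower by at least 2.05-fold on the scale used here. It fell in the additive fit (-1.18, limma adjusted p = 0.00221). In the authors' deposited log2 table the MIB1 differences were -0.68 in confluent and -0.61 in sparse cells. Its relative MIB2 was higher in confluent cells by 0.71 with CDC73 siRNA and 1.06 with control siRNA and rose with confluence in the fit (limma adjusted p = 0.0279). ITCH, a ligase that targets Notch itself, was higher in confluent cells by 1.05 with CDC73 siRNA and differed by -0.02 with control siRNA. FBXW7, which marks the Notch intracellular domain for degradation, was higher with CDC73 siRNA by 0.97 in confluent and 0.59 in sparse cells.

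Other HES and HEY genes and genes known as Notch targets in some tissues went in several directions. HES6, HEYL and NRARP, the last a feedback inhibitor, differed between densities by -0.81, -0.75 and -0.47 with CDC73 siRNA, and by 0.03, 0.13 and 0.33 with control siRNA. MYC, which Notch activates in T cells, had log2 levels of 7.70 (CDC73 siRNA) and 8.75 (control siRNA) in confluent cells, against 9.07 (CDC73 siRNA) and 8.88 (control siRNA) in sparse cells. CCND1, the cyclin D1 gene, differed by -2.62 with CDC73 siRNA in confluent and by -1.62 in sparse cells and fell in the additive fit (-2.12, limma adjusted p = 1.1e-10). CDKN1A, the gene of the cell cycle inhibitor p21 and a p53 target as well, was higher in confluent cells by 0.83 with CDC73 siRNA and 2.06 with control siRNA. HES2 was detected on 1 array only, at a signal of 110.9 in sparse cells with CDC73 siRNA, and no fold is given.

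**Figure D4:**
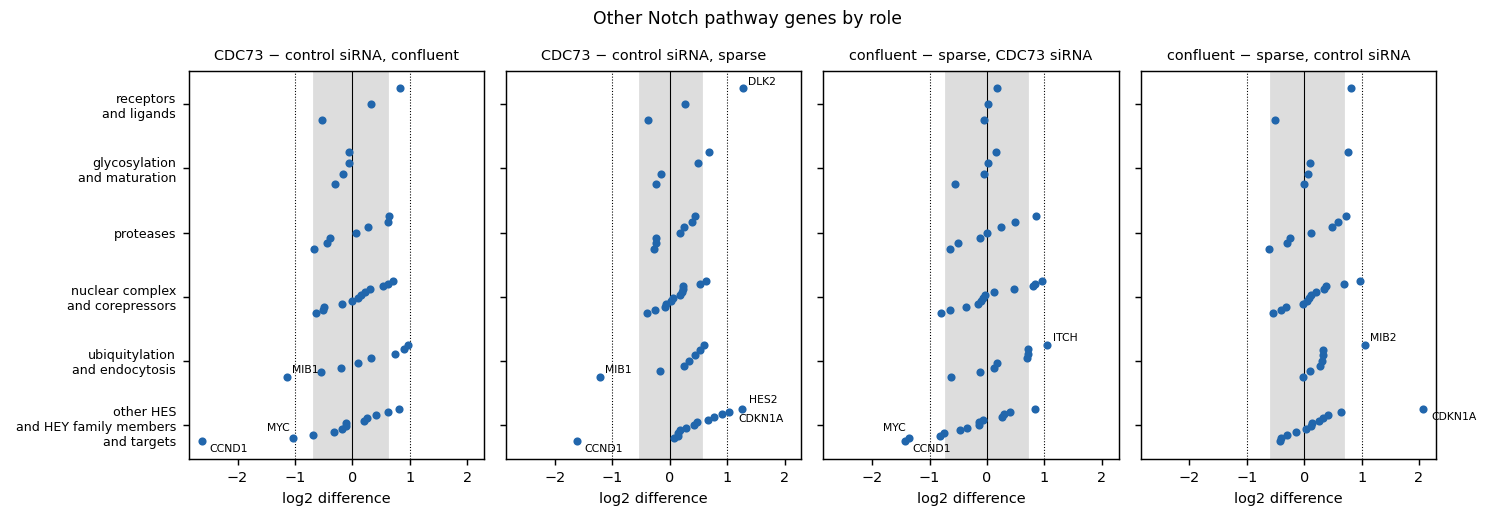
Log2 difference between 2 single arrays (horizontal axis) for the other pathway genes measured in each comparison, in rows by role, with values not set to a bound. Grey bands hold the 10th to 90th percentile of all measured genes, dotted lines mark 2-fold, and genes past 2-fold are named. CCND1 and MIB1 lie past 2-fold on the lower side with CDC73 siRNA at both densities.

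Likeness of pattern was measured as the Euclidean distance between log2 levels on the 4 arrays, each gene centred on its own mean, over genes detected on all 4 arrays. Within the pathway, the gene nearest to NOTCH1 among 50 was JAG2, at 0.275, and nearest to NOTCH3 and to HEY1 was MIB2, at 0.627 and 0.247. HES5 lay nearest to CDKN1A (0.401), DLL1 to NRARP (0.42), JAG1 to SOX9 (0.287) and LFNG to APH1A (0.145). HES1 lay nearest to FURIN (0.209), and NOTCH2 and HES4 to POGLUT1 (0.217 and 0.157). Over the 9046 other genes of the array the nearest were SESN1 to NOTCH1 (0.0527), KLHL24 to NOTCH3 (0.11), VCAN to HES5 (0.0566), ISYNA1 to HEY1 (0.047), PCDHB17P to DLL1 (0.105) and ABLIM1 to JAG1 (0.0441). For the genes that varied least they were BCAT2 to NOTCH2 (0.0382), CAPZA1 to HES1 (0.0339), IKBKG to HES4 (0.0247) and DUS2 to LFNG (0.0371). With 4 arrays such distances describe shape only.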

How the data were processed

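Total RNA of 4 samples was amplified to biotin-labelled cRNA for Illumina arrays, per the labels' protocols. The authors deposited probe intensity on a linear scale, not normalized per the file headers, and a log2 table of the same arrays whose medians were all 6.42 and which correlated with log2 intensity at 0.998 to 1.000, which settles scale and direction. The software behind both is not given in the sources used here. Of 49576 probes 48803 had values, of which 28098 had 1 gene symbol in the platform annotation, 13 several and 20692 none here; 450 olfactory receptor probes served as negative controls. With limma 3.58.1 in R 4.3.3, background was corrected by normexp on these controls with an offset of 16, then arrays were quantile normalized. Since the files hold no detection p-values, detection meant a panel-based p under 0.01. A gene took its brightest probe and was measured in a comparison if detected on at least 1 of its arrays. Called means 2-fold, or an adjusted p of 0.05 in the limma additive fit, whose code was tested on simulated data for the recovery of known changes, not for its error rate on these arrays. The members, lists and tests were chosen with earlier results of these data known. Genes were named by a fixed rule, namely all 10 members and, of the other pathway genes, those past 2-fold and up to 3 more per role with the largest differences, plus the nearest gene to each member. Alternatives were other background, offset, scaling, source table, detection and probe rules. Nothing says that dishes came from separate transfections, and the number of arrays limits precision.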

Additional observations from a re-analysis of the deposited data

Results flagged for a closer look

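With 1 array in each group, only differences of opposite sign under the same contrast, each larger than the disagreement between probes, could be picked out, and none of them was tested. The difference between CDC73 and control siRNA was -0.90 in confluent and 0.29 in sparse cells for NOTCH1, which is -1.19 apart. For HES5 it was -0.33 in confluent and 0.52 in sparse cells, which is -0.86 apart. In the authors' deposited log2 table these HES5 values were -0.08 and 0.37, or -0.44 apart. For DLL1 the difference between confluent and sparse cells was -0.59 with CDC73 siRNA and 0.75 with control siRNA, which is -1.35 apart.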

How the results depend on the processing

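No paired analysis was possible because every group has 1 array and all share the number 1, and leaving out an array would leave a group empty. Over 4 other ways of processing, the values of the 15 probes moved by more than the probe SD in 26 of 75 cases with median scaling, in 4 without background correction, in 4 with the authors' log2 table and in 2 with an offset of 50, and no called difference changed sign. With median scaling, the median of all genes was -0.40 for siRNA in confluent cells and 0.22 for density with control siRNA. The medians of the 10 genes were then -0.59 and 0.81, and 1 gene (NOTCH1) passed 2-fold with siRNA in confluent cells. Of 10497 genes, 1238 then passed there as lower and 63 as higher. The count of 1 gene past 2-fold with siRNA in sparse cells was 0 in the authors' log2 table, with the offset raised to 50, and when background was not corrected. Over all 10182 genes 217 passed there as higher and 185 as lower. Those counts also fell, to 40 and 74, 57 and 98, and 30 and 58 in the same order. The additive fit called 871 genes for density and 444 for siRNA, but 221 and 138 with median scaling. Without a detection filter, which tests 18475 genes, it called 0 and 0 (limma, unadjusted p under 0.05 for 2772 and 1957). Its prior degrees of freedom, the weight of a spread shared between genes, were then 4.6, against infinite in the main fit. With detection p under 0.05, which tests 12589 genes, they stayed infinite, and 845 and 430 genes were called. In the remaining alternatives they were 32.6 or infinite, so passing there relied on that shared spread. NOTCH3 and HES5 passed for density in 8 of 9 alternatives and HEY1 in 6 of 9. A fit whose spread follows mean expression, chosen after seeing the data, called 855 and 415.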
